A study of Mus musculus with 6 samples.

Results

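Guanylate-binding proteins (GBPs) and immunity-related GTPases (IRGs) were followed in spleen RNA of mice with and without Dox. The 10 genes were chosen by name, as GTPase genes known to be induced by interferon gamma: Gbp2, Gbp3, Gbp5, Gbp6, Gbp7 and Gbp9 of the GBP family and Irgm1, Irgm2, Igtp and Iigp1 of the IRG family. All 10 were found among the 40808 Entrez gene IDs of the count table, under 14469 for Gbp2, 55932 for Gbp3, 229898 for Gbp5, 100702 for Gbp6, 229900 for Gbp7, 236573 for Gbp9, 15944 for Irgm1, 54396 for Irgm2, 16145 for Igtp and 60440 for Iigp1. RNA came, per the labels' protocols, from leukaemia cells of the spleen of mice that had received a bone marrow transplant, and 3 libraries were labelled as not receiving Dox (replicates 4, 5 and 6) and 3 as receiving it (replicates 10, 11 and 12). Dox is not spelled out in the labels, and its dose and duration, the gene it acts on, any transgene and its promoter, and the strain, age and sex of donors and recipients are not given in the sources used here. The study's title names NOTCH, UVRAG, ITCH and the ESCRT pathway, and GBP and IRG genes are not part of that title. The labels number the libraries without saying that each came from 1 mouse, so the p-values measure the spread between these libraries, which may be technical.

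Interferon gamma, made mainly by natural killer and T cells, signals through a receptor and the kinases Jak1 and Jak2 to the nucleus, where a palindromic promoter element called GAS responds. Factors made in turn, Irf1 among them, bind the interferon-stimulated response element, ISRE. GBPs are large GTPases that coat intracellular pathogens and the vacuoles around them. IRGs are smaller GTPases of the same innate defence, in which Iigp1 is an effector that loads onto vacuoles, while Irgm1, Irgm2 and Igtp are regulators that sit on host membranes and hold the effectors inactive there.

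Promoter sequences are shown first, since each of the 7 searched here held letters matching at least 1 interferon element. Windows from 250 bases before to 50 bases after a start site were taken from RefSeq on GRCm38.p6 (GRCm38 is the build named in the submitters' processing notes), and 7 of the 10 genes had at least 1 window there (Gbp6, Gbp9 and Iigp1 had none). The search was for TTCNNNGAA (GAS, the same on both strands) and for 2 copies of GAAA, or on the other strand of TTTC, with any 2 bases between them (ISRE). An ISRE match was present for each of the 7 genes and a GAS match for 4 (Gbp5, Gbp7, Irgm2 and Igtp), against 3.44% and 8.30% of all 32851 windows. Both matches stood in 1 window for the same 4 genes and in 0.454% of all windows. A match describes the letters only. The stretches printed here run 5′ to 3′ on the gene's strand and end before the start of the gene. Gbp3 and Irgm1 are shown as genes that rose with Dox under every alternative, Gbp7 to the most abundant member, and Igtp and Irgm2 to neighbouring genes that did not pass the test. Capitals mark GAS and ISRE matches, and all other bases are in lower case.
Gbp3: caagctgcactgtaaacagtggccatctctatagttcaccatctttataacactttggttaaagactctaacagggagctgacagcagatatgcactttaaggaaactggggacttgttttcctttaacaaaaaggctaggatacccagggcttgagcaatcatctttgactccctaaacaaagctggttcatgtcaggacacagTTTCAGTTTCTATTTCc
Gbp7: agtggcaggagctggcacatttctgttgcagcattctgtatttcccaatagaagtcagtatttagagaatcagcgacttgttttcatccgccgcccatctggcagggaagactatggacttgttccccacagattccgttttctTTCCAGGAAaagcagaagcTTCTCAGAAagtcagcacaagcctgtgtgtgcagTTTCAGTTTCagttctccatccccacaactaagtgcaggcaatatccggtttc
Irgm1: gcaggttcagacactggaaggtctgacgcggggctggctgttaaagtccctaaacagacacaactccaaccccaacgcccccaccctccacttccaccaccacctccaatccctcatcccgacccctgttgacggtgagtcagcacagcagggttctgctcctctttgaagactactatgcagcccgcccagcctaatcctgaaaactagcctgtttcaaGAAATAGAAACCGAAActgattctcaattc
Igtp: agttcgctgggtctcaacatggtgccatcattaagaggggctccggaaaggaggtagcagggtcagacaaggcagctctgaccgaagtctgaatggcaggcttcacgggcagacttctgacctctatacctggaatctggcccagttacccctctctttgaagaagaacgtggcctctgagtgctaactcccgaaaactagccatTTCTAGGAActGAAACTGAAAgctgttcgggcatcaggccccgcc
Irgm2: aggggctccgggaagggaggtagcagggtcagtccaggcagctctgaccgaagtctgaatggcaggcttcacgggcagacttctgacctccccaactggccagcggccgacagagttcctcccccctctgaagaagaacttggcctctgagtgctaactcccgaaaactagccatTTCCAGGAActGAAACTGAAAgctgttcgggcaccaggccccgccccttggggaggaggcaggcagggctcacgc

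The Gbp3 stretch lies at chr3:142559794-142560015 on the plus strand and holds TTTCAGTTTC and, overlapping it, TTTCTATTTC. A second Gbp3 window held neither motif. The Gbp7 stretch, chr3:142530086-142530335 on the plus strand, holds 2 GAS matches, TTCCAGGAA and TTCTCAGAA, followed by the ISRE match TTTCAGTTTC. In the Irgm1 stretch, chr11:48871421-48871670 on the minus strand, the overlapping ISRE matches GAAATAGAAA and GAAACCGAAA end at position -15 from the start site. Igtp (chr11:58199306-58199555, plus strand) and Irgm2 (chr11:58214727-58214976, plus strand) are alike: compared without gaps, 68.1% of 270 bases of their windows were identical. In both, a GAS match is followed after 2 bases by the ISRE match GAAACTGAAA. Searched on both strands, that arrangement occurred in 5 of the 32851 windows (0.015%), those of Igtp, Irgm2, Tgtp1, Tgtp2 and Gm12185. The arrangement was taken from the windows of Igtp and Irgm2, which are among the 5, so the low share is not a test. Tgtp1 and Tgtp2 are further IRG genes, and Gm12185 overlaps Tgtp1 in the GENCODE annotation. The windows of Gbp2 and Gbp5 hold the ISRE matches TTTCACTTTC and TTTCAATTTC.

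Libraries held 5541486 to 8725767 counts, and the 10 genes together took 791 to 1024 counts per library without Dox and 2478 to 3407 with Dox. Levels are given as normalised CPM, in which each library's counts are divided by its size and by a TMM factor for its composition. The kit reads the 3′ end of each mRNA, so counts were not divided by transcript length. Without Dox 3 counts in a library equalled 0.388 to 0.541 CPM before that scaling. The groups differed widely. Of 14110 genes tested, 6438 (45.6%) passed an adjusted p-value of 0.05 in edgeR's quasi-likelihood test with Benjamini-Hochberg adjustment, 23.6% higher and 22.1% lower with Dox. Spread between replicates was larger with Dox, where the common biological coefficient of variation was 0.536 against 0.178 without. Uty, Kdm5d, Eif2s3y and Ddx3y, all on the Y chromosome, had 0 counts in each library with Dox, and Ddx3y stood at 44.9 to 47.7 CPM without, so that Dox and sex-linked expression cannot be told apart. The sex-linked gene Xist was read in both groups, at 48.1, 45.3 and 32.5 CPM without Dox and at 453, 489 and 743 CPM with Dox.

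With Dox, 7 of the 10 GTPase genes rose (Gbp2, Gbp3, Gbp5, Gbp6, Gbp7, Gbp9 and Irgm1) and 0 fell, where 23.6% of all tested genes rose. The other 3, Irgm2, Igtp and Iigp1, did not pass the test. The median log2 fold change of the 10 genes was 1.31, beside 0.07 over all genes tested. All 10 passed the filter on low counts. Groups did not overlap for the same 7 genes, a separation upwards that 30% of all tested genes showed. Among the 6923 genes whose average level lay within the range of the 10 genes, 27.1% rose. Since these are bulk samples, a change in the number of cells that express a gene and a change in RNA per cell cannot be told apart. The number called depended on single libraries: 3 of 10 were called without replicate 5 of the group without Dox, 4 without replicate 6 and 5 without replicate 4, while leaving out a library with Dox gave 6 to 8. Gbp3, Gbp9 and Irgm1 were called under all 17 alternatives. The whole set summed to 145, 152 and 159 CPM in the libraries without Dox and to 335, 349 and 411 CPM with Dox, so that the groups did not overlap.

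**Figure D1:**
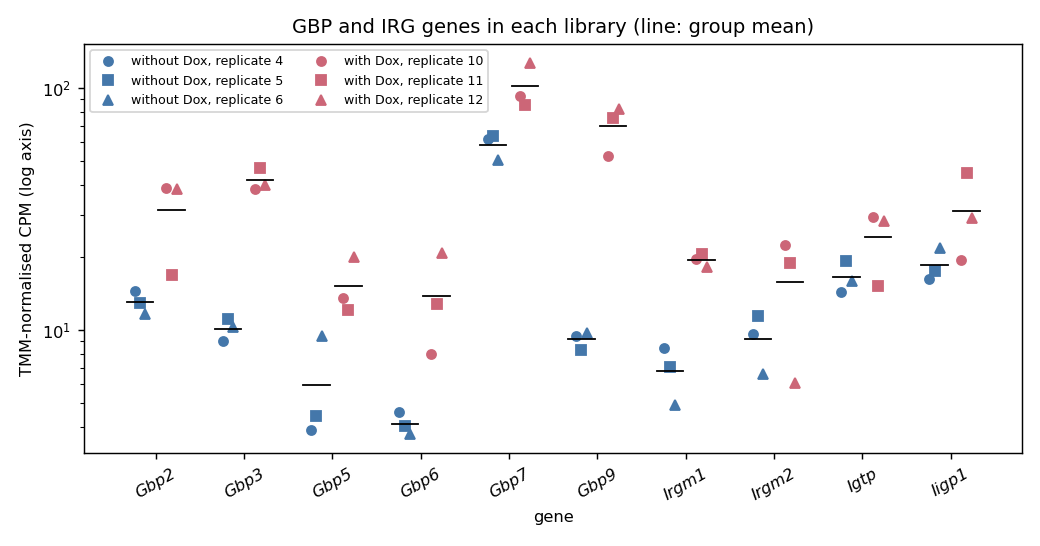
Normalised CPM (log axis) of the 10 genes in each library, without Dox in blue and with Dox in red, with a line at each group mean. The groups separate for Gbp2, Gbp3, Gbp5, Gbp6, Gbp7, Gbp9 and Irgm1 and overlap for Irgm2, Igtp and Iigp1.

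On chromosome 3 Gbp5, Gbp7, Gbp3 and Gbp2 lie in this order on the plus strand between positions 142496934 and 142638008 (GRCm38), a cluster whose loss is known to weaken mouse defence against Toxoplasma. Gbp3 was at 9.05, 11.1 and 10.3 CPM in replicates 4, 5 and 6 without Dox and at 38.4, 46.8 and 39.96 CPM in replicates 10, 11 and 12 with Dox. Both groups were tight and far apart, with the highest Gbp3 library 1.22 times the lowest in each group. Gbp3 rose by 2.04 ± 0.25 on the log2 scale (SE, edgeR adjusted p = 0.00013). Gbp7, reported to bring Atg4b and the phagocyte oxidase to bacterial vacuoles, had 61.6, 63.3 and 50.7 CPM without Dox and 92.6, 85.1 and 128 CPM with Dox. All Gbp7 libraries with Dox lay above those without, by a smaller margin than for Gbp3. Its log2 fold change was 0.80 ± 0.21 (SE), adjusted p = 0.011 (edgeR), and it fell below the threshold without replicate 5 (adjusted p = 0.055) or replicate 6 (adjusted p = 0.086) of the group without Dox.

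Gbp2 and Gbp5 carry a lipid anchor at the C-terminus that lets them attach to membranes. Gbp2 stood at 14.5, 12.9 and 11.6 CPM without Dox and at 38.8, 16.9 and 38.4 CPM with Dox. Replicate 11 was the low one with Dox, yet still above every library without it. The change of Gbp2 was 1.26 ± 0.35 (log2, SE), adjusted p = 0.015 (edgeR). This call was lost in 6 of the 17 alternatives, with adjusted p up to 0.087 (edgeR) without replicate 6 of the group without Dox. Leaving out replicate 4 or 5 of that group or replicate 10 with Dox also lost it. Gbp5, which has been tied to the assembly of the Nlrp3 inflammasome, had 3.86, 4.43 and 9.44 CPM without Dox and 13.5, 12.1 and 20.05 CPM with Dox. Here replicate 6 was the high one without Dox, 2.45 times replicate 4. Gbp5 rose by 1.36 ± 0.45 (log2, SE), adjusted p = 0.032 (edgeR), the weakest of the 7 calls: it was lost without replicate 4 (adjusted p = 0.14) or 5 (0.13) without Dox and without replicate 10 (0.053) or 12 (0.0879) with Dox.

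On chromosome 5 the GBP genes lie on the minus strand, Gbp9 at 105076464 to 105110357 and Gbp6 at 105270702 to 105295871. Gbp9 changed most of the 10 genes. It had 9.50, 8.26 and 9.78 CPM without Dox and 52.6, 75.2 and 82.2 CPM with Dox, and every library with Dox was more than 5 times any library without. The log2 fold change was 2.93 ± 0.25 (SE), adjusted p = 1.7e-05 (edgeR), and the alternatives gave 2.52 to 3.23. In the GENCODE annotation a transcript of Gbp8 on the same strand overlaps Gbp9, so a share of these reads may belong to either gene. Gbp6 was at 4.60, 4.03 and 3.71 CPM without Dox and spread over 7.98, 12.9 and 20.8 CPM with Dox. The groups did not overlap, and the log2 fold change was 1.75 ± 0.47 (SE), adjusted p = 0.012 (edgeR). It missed the threshold without replicate 5 (adjusted p = 0.056) or replicate 6 (adjusted p = 0.056) of the group without Dox.

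How far reads can be assigned among such related genes was read from the annotated transcripts. In the last 500 bases of the longest coding transcript, 77.8% of the 50-base stretches of Gbp6 also occurred in Gbp10, so the Gbp6 values are uncertain. For Gbp2, Gbp3, Gbp7, Gbp9, Irgm2, Igtp and Iigp1 this share was 0%, for Gbp5 1.62% and for Irgm1 3.99%, in each case over all other annotated transcripts.

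Among the regulatory IRGs, Irgm1 (chr11:48865245-48871420, minus strand), whose loss is known to leave mice open to intracellular bacteria and to deplete their blood-forming stem cells, had 8.46, 7.05 and 4.89 CPM without Dox. With Dox it had 19.8, 20.6 and 18.2 CPM, a narrow range in which the highest library was 1.13 times the lowest. Irgm1 rose by 1.52 ± 0.34 (log2, SE), adjusted p = 0.0048 (edgeR). Irgm2 and Igtp are neighbours further along chromosome 11, at 58214977 to 58222783 and 58199556 to 58207592, and Irgm2 overlaps Igtp on the same strand in the GENCODE annotation. Irgm2 had 9.64, 11.5 and 6.57 CPM without Dox and 22.6, 19.0 and 6.03 CPM with Dox. Replicate 12 with Dox lay below every library without Dox, while the other two lay above all 3. The log2 fold change of Irgm2 was 0.78 ± 0.49 (SE), adjusted p = 0.22 (edgeR), and without replicate 12 it was 1.16, adjusted p = 0.018. Igtp, also known as Irgm3, had 14.4, 19.3 and 16.0 CPM without Dox and 29.5, 15.2 and 28.2 CPM with Dox. This time replicate 11 was the one that stayed among the libraries without Dox. Igtp changed by 0.55 ± 0.32 (log2, SE), adjusted p = 0.19 (edgeR), and by 0.78 without replicate 11, adjusted p = 0.044.

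Iigp1, the effector IRG of the set, had 16.3, 17.5 and 21.9 CPM without Dox and 19.5, 44.8 and 29.1 CPM with Dox. Replicate 10 lay within the range of the group without Dox, and replicate 11 was 2.30 times replicate 10. The log2 fold change of Iigp1 was 0.75 ± 0.33 (SE), adjusted p = 0.092 (edgeR). It was 0.97 without replicate 10 (adjusted p = 0.029) and 0.36 without replicate 11 (adjusted p = 0.36).

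The low library was thus a different one for different genes. Relative to the mean of the group with Dox on the log2(CPM + 0.5) scale, replicate 12 was at -1.14 for Irgm2 but at 0.67 for Gbp6, replicate 11 was at -0.78 for Gbp2 and 0.60 for Iigp1, and replicate 10 was at -0.66 for Gbp6 and 0.69 for Irgm2. Replicate 10 was the highest library with Dox for 3 of the 10 genes and the lowest for 4, replicate 11 the highest for 3 and the lowest for 4, and replicate 12 the highest for 4 and the lowest for 2. No library with Dox was low for the whole set.

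**Figure D2:**
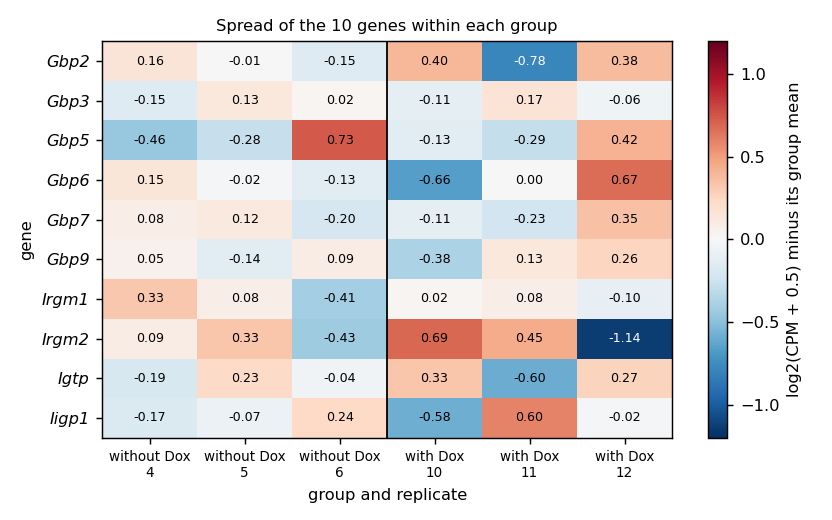
Log2(CPM + 0.5) of each of the 10 genes in each library minus the mean of its group, in red above and in blue below that mean. Gbp3 and Irgm1 varied little with Dox, and the lowest value, -1.14, belongs to Irgm2 in replicate 12.

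The order of levels within the set also shifted. Without Dox Gbp7 led with 58.5 ± 6.8 CPM, followed by Iigp1 with 18.6 ± 2.9 CPM and Igtp with 16.6 ± 2.5 CPM (SD, n = 3 each), and the latter pair overlapped. With Dox Gbp7 was at 102 ± 23 CPM, Gbp9 at 70.0 ± 15.4 CPM and Gbp3 at 41.7 ± 4.4 CPM (SD, n = 3 each), and the libraries of these 3 genes did not overlap. Gbp9 made up 5.18% to 6.74% of the summed level of the 10 genes without Dox and 15.7% to 21.6% with Dox. The 6 GBP genes took 65.2% to 67.9% of that sum without Dox and 71.4% to 80.1% with Dox. IRG genes summed to 48.8 to 55.4 CPM without Dox and to 81.5 to 99.7 CPM with Dox.

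Other members of both families were taken from a list of 19 genes, of which 17 had an ID in the table and 13 passed the filter on low counts. Of these 13, 8 rose and 0 fell, with a median log2 fold change of 1.68, beside 23.6% and 22.1% of all tested genes. Of the 8, 9930111J21Rik1 and 9930111J21Rik2 passed the filter only through the libraries with Dox, which left a rise as the one possible call. With 10 counts required in every library, which leaves out both of these genes, 7 of the list rose. Without replicate 6 of the group without Dox, or at a threshold of 0.01, 5 rose. Among the tested genes named Gbp, the largest change after Gbp9 was in its neighbour Gbp8. It went from 17.1, 14.7 and 11.6 CPM without Dox to 74.4, 57.0 and 135 CPM with Dox, a log2 change of 2.62 ± 0.34 (SE, edgeR adjusted p = 0.00019). Gbp4, between Gbp9 and Gbp10 and overlapped by annotated transcripts of Gbp8 and Gbp9, rose from 12.7 ± 2.7 to 22.7 ± 3.8 CPM (SD, n = 3 each, edgeR adjusted p = 0.045), and this call was lost in each of the 6 fits that left out a library except that without replicate 10. Gbp10 had 1.86 ± 0.46 and 4.91 ± 2.77 CPM (SD, n = 3 each) and did not pass the test (edgeR adjusted p = 0.17). All of its 3′ stretches occur in other transcripts, those of Gbp6 among them, so its values are uncertain. Gbp2b and Gbp11 were too low to test. Gbp2b had 1, 0 and 0 counts without Dox and 1, 0 and 30 with Dox, although it lies between Gbp3 and Gbp2, and Gbp11 had 1, 4 and 0 counts without and 9, 25 and 0 with Dox.

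Among IRG genes outside the 10, Gm12250, which encodes Irgb10, an IRG that helps to open bacteria in the cytosol, lies next to Igtp and rose from 3.61 ± 0.87 to 11.6 ± 2.6 CPM (SD, n = 3 each; log2 fold change 1.68 ± 0.45 (SE), edgeR adjusted p = 0.013), a call lost without replicate 4 (adjusted p = 0.056) or 6 (0.059) of the group without Dox. Tgtp1, 1 of 2 near-identical genes for Irgb6, had 19.4, 15.3 and 15.7 CPM without Dox and 12.4, 14.5 and 15.7 CPM with Dox. Tgtp2 had 19.9, 14.7 and 15.8 CPM without and 12.9, 10.2 and 18.2 CPM with Dox. Neither passed the test (adjusted p = 0.53 and 0.50 by edgeR), and the sign of both, -0.24 and -0.29 on the log2 scale, turned to 0.065 and 0.011 with scaling by library size only. All 50-base stretches in the last 500 bases of Tgtp1 occur in Tgtp2, so the pair was not separable by sequence. Ifi47, also called Irgd, was at 44.6 ± 5.4 and 52.0 ± 10.5 CPM (SD, n = 3 each, edgeR adjusted p = 0.44). The GTPase-like gene F830016B08Rik rose from 9.73 ± 1.28 to 52.4 ± 9.1 CPM and Irgq, an IRG relative, from 7.72 ± 0.65 to 30.2 ± 5.5 CPM (SD, n = 3 each, edgeR adjusted p = 5.1e-05 and 0.00041). Gvin1, a very large interferon-inducible GTPase, rose from 42.2 ± 11.6 to 358 ± 100 CPM (SD, n = 3 each, edgeR adjusted p = 1.9e-05), but all of its 3′ stretches occur in Gm4070. 9930111J21Rik1 had 5, 5 and 12 counts without Dox and 54, 187 and 85 with Dox, and 9930111J21Rik2 had 3, 0 and 0 without and 21, 43 and 32 with Dox (edgeR adjusted p = 0.0019 and 0.016), but 67.2% of the 3′ stretches of 9930111J21Rik1 also occur in 9930111J21Rik2, so these are uncertain too, and the second was lost without replicate 5 or 6 of the group without Dox. Gm4951 did not pass the test (3.38 ± 0.84 and 7.85 ± 3.15 CPM, SD, n = 3 each, edgeR adjusted p = 0.11), but passed in 3 of the 17 alternatives. Gm5431 and Irgc1 were too low to test.

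**Figure D3:**
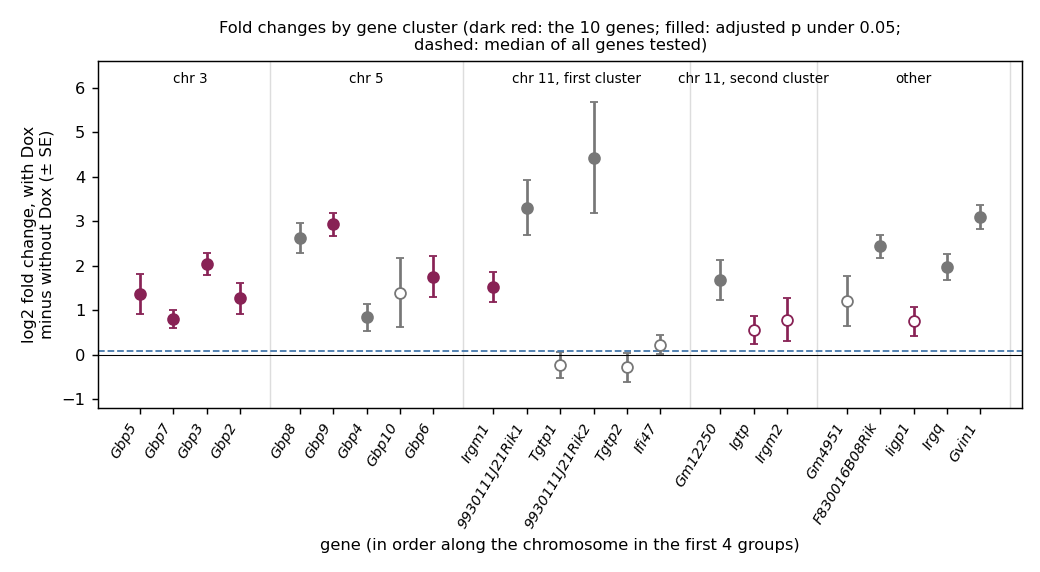
Log2 fold change (with Dox minus without Dox, ± SE) of the tested GBP and IRG genes, with the 10 genes in dark red and the others in grey, filled where the edgeR adjusted p-value was under 0.05. Gbp9 and Gbp8 stand highest among the chromosome 5 GBPs, and Tgtp1, Tgtp2 and Ifi47 lie near the dashed median of all genes tested (0.07).

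The cytokine itself was barely read. Ifng had 3, 2 and 0 counts without Dox and 0, 0 and 0 with Dox, at or under the limit of 3 counts in every library, so no fold is given. Of 10 tested genes for its production, 8 rose and 1 fell, beside 23.6% and 22.1% of all tested genes. Their median log2 fold change, that of the 10, was 3.33, or 2.97 with genes at 0 counts in a group set at their lower bound. Of the 8, 7 passed the filter only through the libraries with Dox, and with a filter of 10 counts in every library only 1 gene of the list rose. The interleukin 12 subunit genes Il12a and Il12b had 0 counts in each library without Dox and were at least 7.503-fold and 16.1-fold higher with Dox against a floor of 3 counts per library. Il18, a co-inducer of interferon gamma, rose from 17.5 ± 5.5 to 59.1 ± 4.4 CPM (SD, n = 3 each, edgeR adjusted p = 0.00057). Il12rb2, a chain of the interleukin 12 receptor, was the gene that fell, from 46.3 ± 5.8 to 7.29 ± 1.98 CPM (SD, n = 3 each, edgeR adjusted p = 6.6e-05).

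Among 11 genes of interferon gamma signalling, 7 rose and 1 fell, beside 23.6% and 22.1% of all tested genes. Both receptor chains were higher with Dox. Ifngr1, the ligand-binding chain, had 73.3, 71.7 and 71.3 CPM without Dox and 243, 150 and 185 CPM with Dox (log2 fold change 1.42 ± 0.20 (SE), edgeR adjusted p = 0.00033). Ifngr2 had 4.60, 6.65 and 5.39 CPM without and 18.8, 18.5 and 10.4 CPM with Dox (edgeR adjusted p = 0.011). It missed the threshold without replicate 4 (adjusted p = 0.063) or 6 (0.0514) of the group without Dox. Jak1 rose from 176 ± 5 to 338 ± 31 CPM (SD, n = 3 each, edgeR adjusted p = 0.00062). Jak2, at 38.0 ± 6.6 and 54.7 ± 1.9 CPM (SD, n = 3 each), did not pass (edgeR adjusted p = 0.061), although its groups did not overlap. Irf1 rose from 58.6 ± 12.6 to 185 ± 55 CPM and Irf8, a factor of myeloid and B cells, from 31.6 ± 5.9 to 559 ± 50 CPM (SD, n = 3 each, edgeR adjusted p = 0.00059 and 1.1e-06). Socs1, which inhibits Jak kinases and is itself induced by interferon gamma, went the other way. It had 23.4, 37.7 and 34.2 CPM without Dox and 11.4, 3.99 and 1.31 CPM with Dox, a log2 fold change of -2.52 ± 0.61 (SE), edgeR adjusted p = 0.0074. Socs1 passed the filter on low counts only through the libraries without Dox, so that only a fall could be called.

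Of 21 tested genes that interferon gamma also induces, 9 rose and 3 fell, with a median log2 fold change of 0.61, beside 23.6% and 22.1% of all tested genes. Ciita, the activator of MHC class II genes, rose from 4.03 ± 1.14 to 77.1 ± 3.9 CPM, and Nlrc5, which does the same for MHC class I, from 2.98 ± 1.02 to 19.8 ± 13.3 CPM (SD, n = 3 each, edgeR adjusted p = 3.1e-06 and 0.0037). The Nlrc5 call was lost with limma-voom (adjusted p = 0.0644). The chemokine gene Cxcl9 rose from 24.98 ± 0.64 to 63.2 ± 25.4 CPM (SD, n = 3 each, edgeR adjusted p = 0.0037). Cxcl10 was at 4.42 ± 2.30 and 6.398 ± 0.956 CPM (SD, n = 3 each) and did not pass the test (edgeR adjusted p = 0.47). The 3 that fell were Tap2, a peptide transporter subunit, Psmb8, a subunit of the immunoproteasome, and Gch1, which starts the synthesis of tetrahydrobiopterin, with log2 fold changes of -2.47, -1.83 and -1.16 (edgeR adjusted p = 0.0096, 3.1e-05 and 0.0041). Without replicate 12 with Dox 5 of this list fell, and without a filter on low counts 6. Tap2 had 77.3, 42.2 and 7.47 CPM in replicates 10, 11 and 12 with Dox, and Irgm2 and Socs1 too were lowest in replicate 12.

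Genes best known as targets of type I interferon were compared as the nearest relatives of the set. Of 33 tested, 27 rose and 0 fell, with a median log2 fold change of 2.09, beside 23.6% and 22.1% of all tested genes. Of the 27, 8, such as Mx1, Oas2 and Oasl1, passed the filter on low counts only through the libraries with Dox. With 10 counts required in every library 20 rose. The difference from the GBP and IRG genes was not tested. Among those that rose, Mx1 had 0.15, 0 and 0 CPM without Dox and 10.1, 24.6 and 9.30 CPM with Dox (edgeR adjusted p = 0.00013), and Oas2 and Oasl1 showed the next highest fitted changes. The Oas2 call was lost in 4 of 16 alternatives, with adjusted p up to 0.101 (edgeR) without replicate 5 of the group without Dox. Oasl1 lost its call with limma-voom (adjusted p = 0.0531). The 6 that did not pass were Isg15, Ifitm3, Oas1a, Ifi35, Bst2 and Ifit2, with edgeR adjusted p-values of 0.070 to 0.62.

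Loading of GBPs and IRGs onto vacuoles is known to need the enzymes that conjugate LC3 and its relatives to lipids. Of 12 such genes, 2 rose (1 without replicate 4 or 6 of the group without Dox or replicate 10 with Dox) and 4 fell, with a median log2 fold change of -0.15, where 23.6% and 22.1% of all tested genes rose and fell. Gabarapl2, an LC3 relative, fell from 83.6 ± 2.4 to 32.7 ± 3.1 CPM and Atg3, the conjugating enzyme, from 54.9 ± 4.7 to 24.5 ± 7.8 CPM (SD, n = 3 each, edgeR adjusted p = 0.00023 and 0.0046). Atg4b, the protease reported to bind Gbp7, rose from 21.7 ± 3.7 to 49.4 ± 14.5 CPM (SD, n = 3 each, edgeR adjusted p = 0.0059). Atg5, Atg7 and Atg16l1 did not pass the test (edgeR adjusted p = 0.082, 0.66 and 0.23). Of 6 genes for the prenyl anchors and their trimming, 0 rose and 2 fell, the transferase subunits Fnta (adjusted p = 0.0054) and Pggt1b (adjusted p = 0.030, up to 0.16 without replicate 4 of the group without Dox), and the number that fell was 1 to 3 over the alternatives. Pggt1b was 1 of 2 of these genes that passed the filter only through the libraries without Dox, so that only a fall could be called. Of 7 tested inflammasome genes downstream of GBPs, 3 rose (Casp4, Casp1 and Il1b, the last tested only through the libraries with Dox) and the adaptor gene Pycard fell, from 91.3 ± 10.6 to 22.6 ± 3.9 CPM (SD, n = 3 each, edgeR adjusted p = 5.1e-05). The Casp1 call (adjusted p = 0.043) was lost in 8 of the 17 alternatives, with adjusted p up to 0.17 (edgeR) without replicate 6 of the group without Dox. Casp4, the sensor of cytosolic lipopolysaccharide, rose from 4.80 ± 0.73 to 27.1 ± 4.3 CPM (SD, n = 3 each, edgeR adjusted p = 0.00018). The DNA sensor Aim2 was at 73.2 ± 11.8 and 80.5 ± 15.2 CPM (SD, n = 3 each, edgeR adjusted p = 0.62).

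**Figure D4:**
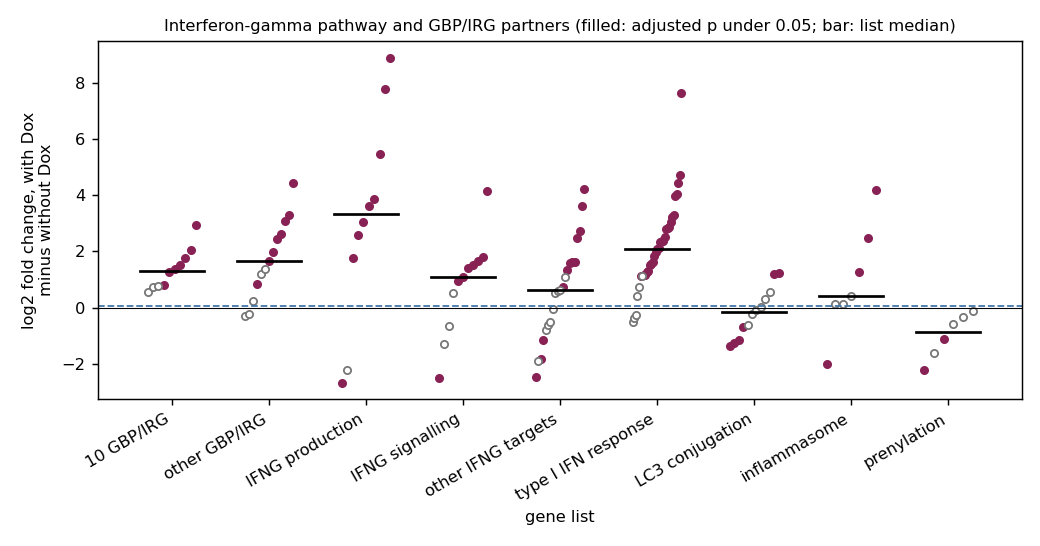
Log2 fold change (with Dox minus without Dox) of each tested gene in 9 lists around the GTPases, filled where the edgeR adjusted p-value was under 0.05, with a bar at each list median and a dashed line at the median of all genes (0.07). No GBP or IRG gene falls past the threshold, while the LC3 conjugation and prenylation lists hold genes that fell, and the highest points of the production list, Il12b and Il12a, are fitted values of genes at 0 counts without Dox.

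Several lists of cell type markers moved with the groups by more than the GTPases did. Of all tested genes, 23.6% rose and 22.1% fell. Of 11 B cell markers all 11 rose, and their summed level was 35.3 to 44.0 CPM without Dox and 1992 to 2112 CPM with Dox. Of 10 neutrophil markers all 10 rose, from 51.7 to 66.5 CPM in sum to 2228 to 2386 CPM, with Ly6g at 0 counts in every library without Dox. All 10 tested markers of monocytes and dendritic cells rose (45.7 to 51.4 and 280 to 318 CPM in sum). Cd209a, too low to test, had 3, 0 and 0 counts without Dox and 0, 0 and 0 with Dox. T cell markers went the other way, with 10 of 12 lower and sums of 1789 to 1898 CPM without Dox and 216 to 314 CPM with Dox, and no marker of the list was at 0. Of 7 natural killer cell markers 3 were tested, of which Nkg7 rose and Gzma fell to 0 counts with Dox, and Klra8 was at 0 in all libraries. Nkg7 passed the filter only through the libraries with Dox, Gzma and the other tested marker only through those without. The direction that could be called was thus fixed for each. Gzma alone had 339 to 393 CPM without Dox, and the other 6 markers summed to 2.70 to 6.65 CPM without and 10.8 to 17.3 CPM with Dox. Macrophage markers overlapped in sum (787 to 949 and 834 to 1134 CPM), with 1 higher and 4 lower of 12, and endothelial and stromal markers had 3 higher and 2 lower of 10 (405 to 441 and 453 to 619 CPM). Beside the shares of all tested genes, the counts called in these lists are not read as a change of those cells. Of 12 erythroid markers 6 rose and 2 fell, and haemoglobin genes took 8.61% to 9.04% of counts without and 14.1% to 15.9% with Dox. Many of these markers passed the filter only through the libraries with Dox, so that only a rise could be called: 6 of the 11 for B cells, 7 of the 10 for neutrophils and 5 of the 10 for monocytes and dendritic cells. GBP and IRG genes can be expressed in many of these cells, and the part of cell makeup in their change was not tested.

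**Figure D5:**
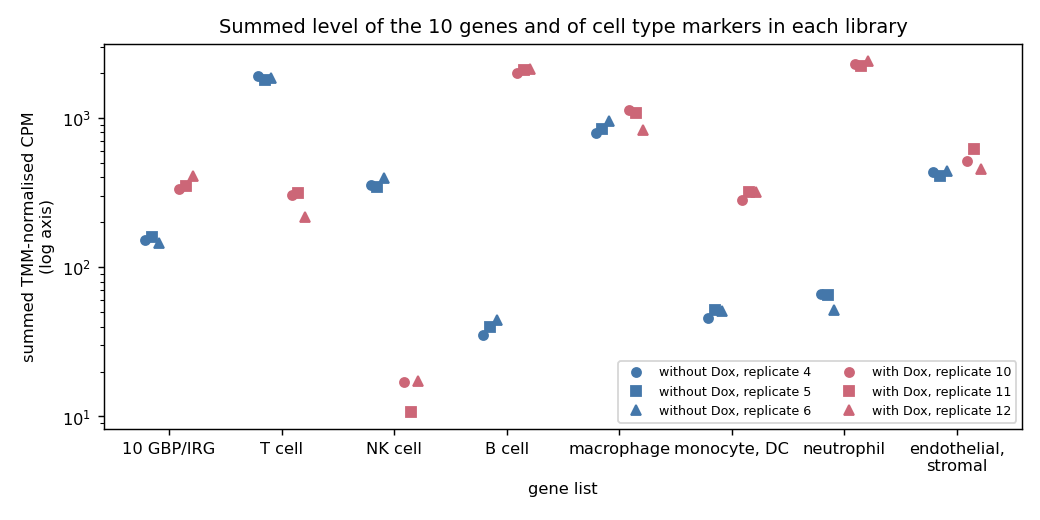
Summed normalised CPM (log axis) of the 10 GTPase genes and of 7 lists of cell type markers in each library. The GTPase sum lies between 145 and 159 CPM without Dox and between 335 and 411 CPM with Dox, a smaller step than that of the B cell, neutrophil and T cell markers. The step of the natural killer cell list is that of Gzma, and its other 6 markers summed to more with Dox.

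Transcript length moved with the groups too. In 4 classes of tested genes by transcript length, the median log2 fold change was -0.34 in the shortest class and 0.37 in the longest, to which Gbp5, Gbp6, Gbp7, Gbp9, Irgm2 and Iigp1 belong. The part of length in their change was not tested beyond the following fit. With each library's trend with length removed, 5 of the 10 genes rose, and their median log2 fold change was 1.11. Gbp7 then changed by 0.31 (adjusted p = 0.23) and Gbp5 by 0.99 (adjusted p = 0.096 by edgeR), while Gbp9 still changed by 2.52.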

How the data were processed

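Mouse spleen RNA was made into 3′-end libraries with the QuantSeq V2 forward kit, per the labels' protocols. The authors deposited 1 table of raw read counts per Entrez gene ID, whole numbers, 1 column for each of 6 libraries. STAR and featureCounts are named without version in the submitters' processing notes, with build GRCm38. The annotation, the strand setting and the treatment of reads with several positions are not given in the sources used here, so reads of similar GBP and IRG genes may be split, dropped or shared. The floors given cover counting error alone, since reads can be copies of 1 molecule.

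Each of the 6 columns matched 1 sample title, leaving 0 unmatched columns of sample values. Symbols came from RefSeq GRCm38.p6 (39374 of 40808 IDs matched, 96.5%). Genes passing filterByExpr (at least 10 counts, total at least 15) were scaled with TMM and tested with edgeR 4.0.16 in R 4.3.3 (glmQLFit and glmQLFTest, 2 groups, no covariate), Benjamini-Hochberg over 14110 genes, threshold 0.05. The SE is the log2 fold change over the root of its F value. The test was also run on simulated counts with an equal spread in both groups, and the outcome is not reported here. That run does not cover the larger spread with Dox. Alternatives were other scaling, filters and thresholds, leaving out genes or libraries, DESeq2 1.42.0, limma-voom (limma 3.58.1) and, added after seeing the data, removal of a trend with the median length of a gene's GENCODE M21 transcripts (12728 tested genes). The 10 genes, the other lists and the tests were chosen with earlier results of these data known, and no list was tested as a whole. Genes that could be named, not all of which are printed, were the 10 genes, the other GBP and IRG genes, 13 genes of the interferon gamma pathway and, in each other list, up to 3 genes per direction with the largest called, non-overlapping changes. Il18, Atg5, Atg7, Atg16l1, Aim2, Kdm5d, Cd209a, Klra8, the genes named only for shared sequence (Gm12185 and Gm4070) and the type I interferon genes that missed the threshold fall outside this rule and were chosen with their values in view.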

Additional observations from a re-analysis of the deposited data

How the results depend on the processing

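No paired analysis was possible because replicates 4 to 6 and 10 to 12 have no number in common. The 10 genes kept their direction in each of the 17 alternatives, and 0 of them fell in any. The number that rose, 7, was 3 at an adjusted p-value under 0.01 and ran from 3 to 8 over the fits that left out a library, in which the number of all genes called ran from 4795 to 7025. With scaling by library size only, the median log2 fold change of the 10 genes was 1.61 in place of 1.31, and the ratio of their summed level was 2.96 in place of 2.399, while the median of all genes moved from 0.07 to 0.38. Over 170 comparisons of a single one of the 10 genes with an alternative, 145 kept their side of the threshold, 20 lost the call and 5 gained it. Of the other named genes, Tgtp1 turned to 0.065 (log2) under library size only and to 0.078 with the length trend removed, Tgtp2 to 0.011 under library size only, and Jak2 to -0.008 with the length trend removed; none of these changes passed the threshold in either fit, and the cause was not tested. Jak2 passed under 5 other alternatives. Gbp5 and Gbp6 had 20 to 56 counts per library without Dox, which limits the precision of their values. Removing the length trend left 12728 genes with a transcript length to test.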
